A study of Homo sapiens with 4 samples.

Results

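Levels of 10 genes of the YAP/TEAD axis of Hippo signalling, chosen by symbol out of 23228 gene symbols, were read from total RNA sequencing of A673 cells. A673 is an established line of Ewing sarcoma, a bone and soft tissue tumour driven by the EWS-FLI1 fusion. They are the targets CYR61, CTGF and ANKRD1, the angiomotins AMOTL2, AMOTL1 and AMOT, the kinase LATS2, the co-activators YAP1 and WWTR1, and the DNA-binding factor TEAD1. The 4 libraries come from cells treated with SMPD1 siRNA (siSMPD1), the scrambled siRNA control whose title shares its time label (control_SMPD1), GPR64 siRNA (siGPR64) and the scrambled siRNA control titled for GPR64 (control_GPR64), each harvested 48 h after transfection. All were grown in serum with insulin and beta-mercaptoethanol and all received transfection reagent, and each group is 1 library of the same cell line, so no difference has a replicate check. The labels do not say whether both pairs come from 1 experiment, nor that a knockdown and its control were handled together. SMPD1 encodes acid sphingomyelinase, which makes ceramide in lysosomes, and GPR64, now ADGRG2, is an orphan receptor of the adhesion class. In RNA from a whole culture, fewer cells that express a gene and less RNA per cell cannot be told apart.

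Hippo signalling restrains a pair of related co-activators, YAP (encoded by YAP1) and TAZ (encoded by WWTR1). When the kinases LATS1 and LATS2 are active they phosphorylate YAP and TAZ, which are then kept in the cytoplasm or degraded, and angiomotins hold them at junctions and on actin. When the kinases are idle, YAP and TAZ enter the nucleus, bind TEAD factors and switch on genes such as CYR61 (CCN1), CTGF (CCN2) and ANKRD1. AMOTL2 and LATS2 are both inhibitors and targets, which makes a negative feedback loop. Transcript levels of YAP1 and WWTR1 do not measure the activity of their proteins, which depends on phosphorylation and location.

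TEAD factors bind the motif GGAATG, and the promoters that hold it are shown here because they include the canonical targets CTGF and ANKRD1 and the co-activator gene YAP1. RefSeq promoters (GRCh38.p14, another build than that of the read counts) matched 8 of the 10 genes, with 10 start sites. CYR61 and TEAD1 had no entry. In the 250 bases before each start, read on both strands, 4 of the 10 promoters held GGAATG, against 11.9% of 35116 promoters in the table. CTGF held 3 matches, 169, 104 and 95 bases before its start, and 3 or more were found in 0.0826% of all promoters. ANKRD1 held 2 matches, and YAP1 and the second start of AMOTL2 held 1 match each. The sequences below run 5′ to 3′ on the gene's strand with GGAATG, or its reverse complement CATTCC, in capitals.
CTGF, chr6:131951373-131951622, minus strand: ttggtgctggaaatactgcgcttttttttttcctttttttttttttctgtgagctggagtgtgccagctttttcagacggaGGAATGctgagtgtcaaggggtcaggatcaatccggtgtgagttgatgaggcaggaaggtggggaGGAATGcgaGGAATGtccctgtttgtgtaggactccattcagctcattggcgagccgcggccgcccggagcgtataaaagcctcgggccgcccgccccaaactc
ANKRD1, chr10:90921088-90921337, minus strand: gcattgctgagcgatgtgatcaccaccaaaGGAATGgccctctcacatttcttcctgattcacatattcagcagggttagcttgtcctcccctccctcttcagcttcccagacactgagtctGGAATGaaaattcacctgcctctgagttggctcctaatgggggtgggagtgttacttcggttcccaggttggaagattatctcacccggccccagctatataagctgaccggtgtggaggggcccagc
AMOTL2 second start, chr3:134374448-134374697, minus strand: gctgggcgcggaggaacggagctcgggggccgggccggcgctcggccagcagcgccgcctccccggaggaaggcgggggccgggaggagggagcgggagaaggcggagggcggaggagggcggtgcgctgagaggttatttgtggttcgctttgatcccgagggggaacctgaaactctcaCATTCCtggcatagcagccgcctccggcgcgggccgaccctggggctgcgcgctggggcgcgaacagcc
YAP1, chr11:102110197-102110446, plus strand: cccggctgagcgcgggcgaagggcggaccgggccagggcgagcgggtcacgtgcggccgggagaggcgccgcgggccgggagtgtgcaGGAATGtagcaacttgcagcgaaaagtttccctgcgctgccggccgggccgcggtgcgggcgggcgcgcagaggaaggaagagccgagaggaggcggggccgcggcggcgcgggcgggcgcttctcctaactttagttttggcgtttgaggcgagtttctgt

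Both starts of WWTR1 and the starts of AMOTL1, AMOT and LATS2 held no GGAATG in this window. The AP-1 motif TGANTCA, where N is any base, was found once, in ANKRD1, and in 6.57% of all promoters. The serum response element known as the CArG box was found in none of the 10 and in 1.16% of all promoters. These are letter matches in a short window and carry no information on binding.

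**Figure D1:**
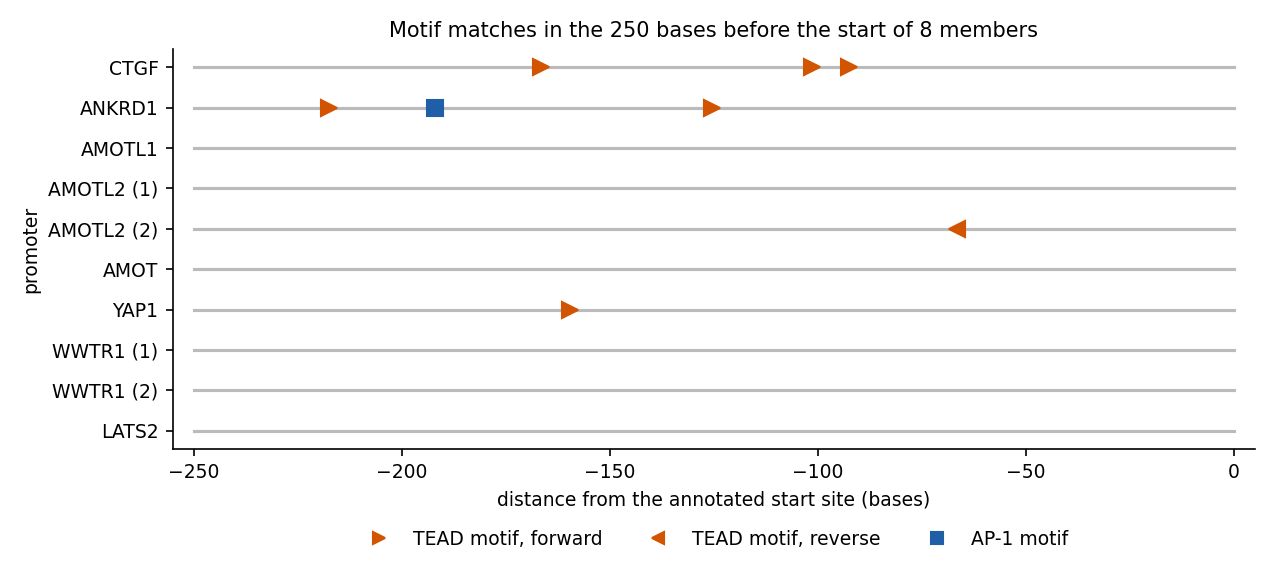
Matches of the TEAD motif (triangles, pointing along the strand that holds GGAATG) and of the AP-1 motif (square) in the 250 bases before each RefSeq start of 8 genes, as distance from the start in bases. CTGF has 3 TEAD matches and ANKRD1 has 2, while AMOTL1, AMOT, LATS2 and WWTR1 have none.

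Read counts over genes summed to 18849264 in siSMPD1, 19614913 in control_SMPD1, 2534861 in siGPR64 and 2882854 in control_GPR64, so the GPR64 pair is far shallower. Levels are given in CPM, read counts scaled to library size after adjustment by TMM factors. A gene with 0 reads may still have had a level of up to 0.159 CPM in siSMPD1, 0.156 in control_SMPD1, 1.18 in siGPR64 and 1.03 in control_GPR64. SMPD1 itself stood at 91.7 CPM in siSMPD1, 414 in control_SMPD1, 232 in siGPR64 and 52.8 in control_GPR64, so the level in control_GPR64 lay below that of the SMPD1 knockdown. GPR64 stood at 539, 388, 50.1 and 108.6 CPM in the same libraries. Of 11 Ewing sarcoma markers, 9 to 10 reached 1 CPM in every library, while CD99 was listed at 0 reads in all 4. Reads aligned to several places are not counted, so 0 reads need not mean that CD99 transcript was absent. The labels give the tissue as muscle, yet of 10 skeletal muscle markers 2 reached 1 CPM, TNNT1 (11.3 to 59.3 CPM) and MYH3 (1.43 to 2.03 CPM), and the defining factors MYOD1, MYOG and MYF5 had 0 reads in every library.

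Each ratio below sets 1 library against 1 other, with a 95% interval for the error of counting alone. A gene is said to pass the 2-fold rule when its mean level over both libraries is at least 1 CPM, its ratio is at least 2-fold and its interval excludes equality. ANKRD1, which encodes a cardiac ankyrin repeat protein, had 1 read in siSMPD1, 0 in control_SMPD1, 1 in siGPR64 and 0 in control_GPR64. It was thus not measurable at these depths, its promoter matches aside, and 9 of the 10 genes have ratios.

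The comparison of siSMPD1 with its control asks what accompanies loss of SMPD1 transcript. The secreted targets CYR61 and CTGF and the co-activator gene WWTR1 were lower by the 2-fold rule, and none of the 10 genes was higher by it. YAP1 and AMOTL2 were lower by less than 2-fold, AMOTL1 and TEAD1 were slightly higher, and AMOT and LATS2 lay within counting error of their control. The 3 lower genes compare with a background of 1.11% lower by the rule among 12749 measured genes, and 3.60% in either direction (2.49% higher). With a 1.5-fold rule, 5 of the 10 were lower (the 3 above with YAP1 and AMOTL2) and none higher, where 4.78% of all genes were lower and 7.26% higher, 12.0% in all. The median log2 ratio of the 9 was -0.65, beside -0.00 over all measured genes. The genes were chosen with earlier results of these data known, so these shares give scale and do not test the set.

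CYR61 encodes a secreted matricellular protein that binds integrins. It stood at 4.98 CPM in siSMPD1 (94 reads) against 22.3 CPM in control_SMPD1 (429 reads), and at 14.9 CPM in siGPR64 (38 reads) against 19.9 CPM in control_GPR64 (58 reads). The siSMPD1 library was the lowest of the 4, and the other 3 differed from their neighbours in the order of levels by no more than counting error. The ratio in siSMPD1 was 4.46-fold lower (3.58 to 5.67), and 3.96-fold lower (2.82 to 5.59) against control_GPR64. In that comparison 5 of the 9 genes passed the rule, CYR61 and CTGF on the low side and AMOTL1, AMOT and TEAD1 on the high side, where 18.5% of 12887 genes passed (10.5% higher and 8.02% lower). In siGPR64 it was 1.33-fold lower than in its control, with an interval that includes equality (log2 -1.05 to 0.20), and its log2 ratio against control_SMPD1 was -0.58 (-1.10 to -0.10). The siSMPD1 log2 ratio lay 1.74 below the siGPR64 one (interval of the difference -2.45 to -1.03).

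CTGF encodes a second matricellular protein of the same CCN family, linked to fibrosis and matrix production. It stood at 2.91 CPM in siSMPD1 (55 reads) against 7.60 CPM in control_SMPD1 (146 reads), and at 10.2 CPM in siGPR64 (26 reads) against 9.25 CPM in control_GPR64 (27 reads). Again siSMPD1 was the lowest library, and the 3 other libraries could not be ordered beyond counting error. For CTGF, the gene with 3 GGAATG matches, the siSMPD1 level was lower by 2.59-fold (1.90 to 3.62) against its own control and by 3.14-fold (1.92 to 5.12) against control_GPR64. Its log2 ratio in siGPR64 was 0.14 (-0.70 to 0.97), and the log2 ratio in siSMPD1 minus that in siGPR64 was -1.52 (-2.48 to -0.55). RefSeq places the antisense gene CCN2-AS1 across CTGF, and without a stated strand setting the reads of both cannot be told apart. The other 4 CCN genes had between 0 and 7 reads in any library.

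WWTR1, which encodes TAZ, stood at 95.1 CPM in siSMPD1 (1795 reads) against 205 CPM in control_SMPD1 (3946 reads), and at 123 CPM in siGPR64 (314 reads) against 128 CPM in control_GPR64 (374 reads). It was lowest in siSMPD1 and highest in control_SMPD1, with both libraries of the GPR64 pair between. In siSMPD1 it was 2.16-fold lower (2.04 to 2.28). Against control_GPR64 the log2 ratio was -0.43, short of 2-fold, so the call rests on the paired control. The ratio within the GPR64 pair was 1.04-fold lower, within counting error. The log2 ratio in siSMPD1 minus that in siGPR64 was -1.05 (-1.29 to -0.82), of which 0.68 is the gap between the controls. Set directly against each other, siGPR64 stood 0.37 above siSMPD1 in log2 (0.19 to 0.54). The antisense gene WWTR1-AS1 had 18 reads in siSMPD1, 13 in control_SMPD1 and 1 in each library of the GPR64 pair.

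YAP1, the partner co-activator, was the more abundant of the pair in all 4 libraries also per length, at 30.9 CPM per kilobase of exon in siSMPD1 and 53.9 in control_SMPD1, where WWTR1 had 17.7 and 38.3. Its level was 174 CPM in siSMPD1 (3279 reads) against 304 CPM in control_SMPD1 (5833 reads), and 163 CPM in siGPR64 (417 reads) against 242 CPM in control_GPR64 (706 reads). Both knockdown libraries were thus below both controls, and they did not differ from each other beyond counting error. The ratios were 1.75-fold lower in siSMPD1 (1.67 to 1.82) and 1.48-fold lower in siGPR64 (1.31 to 1.68), neither past the 2-fold rule. With the controls exchanged they were 1.39-fold and 1.86-fold lower. No other gene among the 9 lay below both controls in both knockdown libraries with every interval excluding equality. Intervals excluded equality, in either direction, for 57.0% of all measured genes in siSMPD1 and 42.5% in siGPR64 over the paired control. With the controls exchanged these shares were 60.6% and 50.8%. The share of all genes with the YAP1 pattern was not counted.

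TEAD1, the DNA-binding partner, was higher in both knockdown libraries than in the paired control. It stood at 261 CPM in siSMPD1 (4919 reads) against 185 CPM in control_SMPD1 (3558 reads), and at 179 CPM in siGPR64 (457 reads) against 125 CPM in control_GPR64 (366 reads). The ratios were 1.41-fold (1.35 to 1.47) and 1.43-fold (1.24 to 1.64), and their log2 difference was -0.02 (-0.23 to 0.19). Neither passed the 2-fold rule. Against control_SMPD1 the siGPR64 library had a log2 ratio of -0.05, and against control_GPR64 siSMPD1 had 1.06, past the rule.

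**Figure D2:**
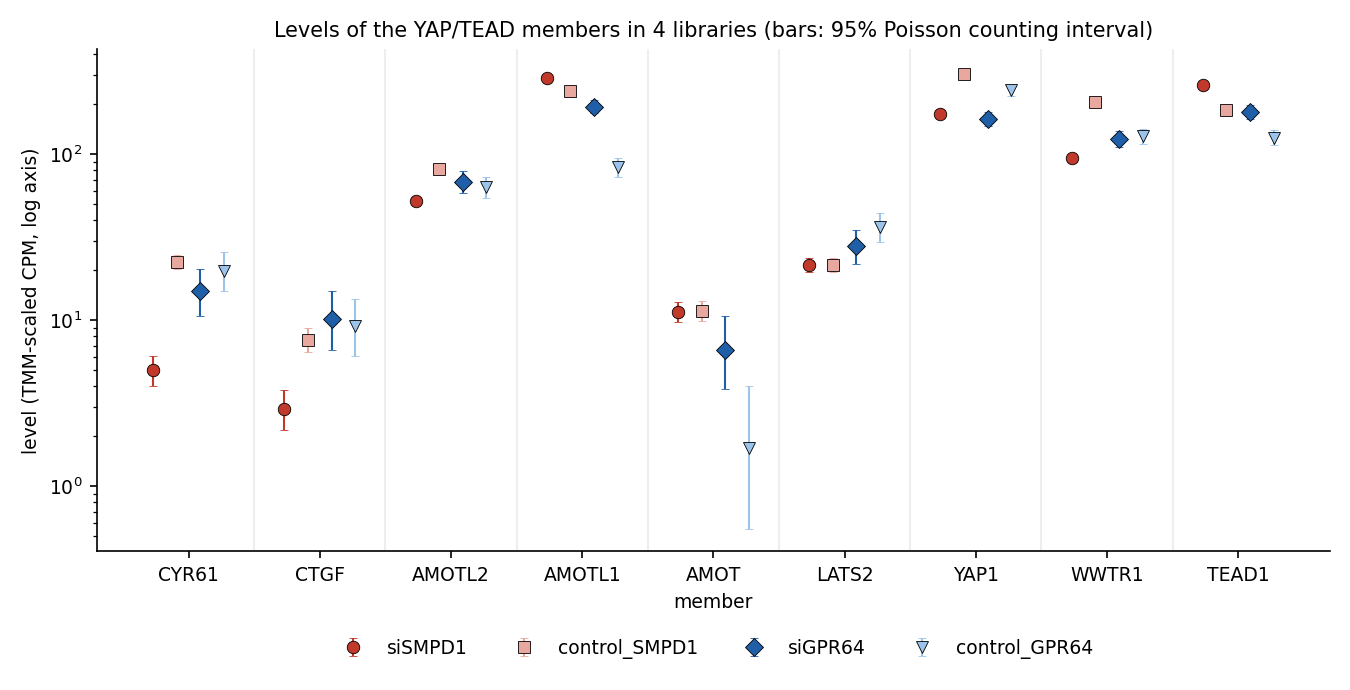
Level of 9 genes in each library as TMM-scaled CPM on a log axis, with 95% Poisson counting intervals as bars (ANKRD1, with 0 or 1 read a library, is left out). CYR61 and CTGF are lowest in siSMPD1, at 4.98 and 2.91 CPM, and AMOT and AMOTL1 are lowest in control_GPR64, at 1.71 and 83.2 CPM.

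The angiomotins, which bind YAP and TAZ at cell junctions, followed another pattern. AMOTL1 stood at 287 CPM in siSMPD1 (5410 reads) against 239.7 CPM in control_SMPD1 (4605 reads), and at 193 CPM in siGPR64 (492 reads) against 83.2 CPM in control_GPR64 (243 reads). AMOT stood at 11.2 CPM in siSMPD1 (211 reads) against 11.4 CPM in control_SMPD1 (219 reads), and at 6.66 CPM in siGPR64 (17 reads) against 1.71 CPM in control_GPR64 (5 reads). For both genes control_GPR64 was the library that stood apart, on the low side.

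The comparison of siGPR64 with its control asks what accompanies loss of GPR64 transcript, though SMPD1 was also 4.38-fold higher there (3.68 to 5.28). The genes past the 2-fold rule in it were AMOTL1 and AMOT, both higher. AMOTL1 was 2.31-fold higher (1.98 to 2.71) and AMOT 3.61-fold higher (1.38 to 13.5). None of the 10 was lower by the rule. The background was 6.56% higher and 5.18% lower among 12830 measured genes, 11.7% in all. Against control_SMPD1 both lay on the other side of equality, with log2 ratios of -0.31 for AMOTL1 and -0.77 for AMOT, so their direction in siGPR64 depends on the control library. With that control none of the 9 genes passed the rule, where 11.4% of 12812 genes did (6.18% higher and 5.25% lower). In siSMPD1 the log2 ratio was 0.26 (0.20 to 0.32) for AMOTL1 and -0.03 (-0.31 to 0.25) for AMOT. Over the 9 genes the median log2 ratio in siGPR64 was 0.10, beside 0.01 over all measured genes.

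AMOTL2, the angiomotin that is also a YAP target, did not follow the other angiomotins. It stood at 52.0 CPM in siSMPD1 (981 reads) against 81.5 CPM in control_SMPD1 (1565 reads), and at 67.8 CPM in siGPR64 (173 reads) against 63.4 CPM in control_GPR64 (185 reads). As for CYR61, CTGF and WWTR1, siSMPD1 was the lowest library, but by less. The siSMPD1 ratio was 1.57-fold lower (1.45 to 1.70) and 1.22-fold lower against control_GPR64 (1.04 to 1.43). In siGPR64 the log2 ratio was 0.10, within counting error. The log2 ratio in siSMPD1 minus that in siGPR64 was -0.74 (-1.07 to -0.41), which includes a gap between the controls.

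LATS2, the kinase that phosphorylates YAP and TAZ, stood at 21.5 CPM in siSMPD1 (405 reads) against 21.5 CPM in control_SMPD1 (413 reads), and at 27.8 CPM in siGPR64 (71 reads) against 36.3 CPM in control_GPR64 (106 reads). No neighbours in its order of levels differed beyond counting error. The interval of its log2 ratio ran from -0.20 to 0.20 in siSMPD1 and from -0.84 to 0.06 in siGPR64. Between the controls, LATS2 was higher in control_GPR64 than in control_SMPD1, by 1.69-fold (1.35 to 2.10).

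**Figure D3:**
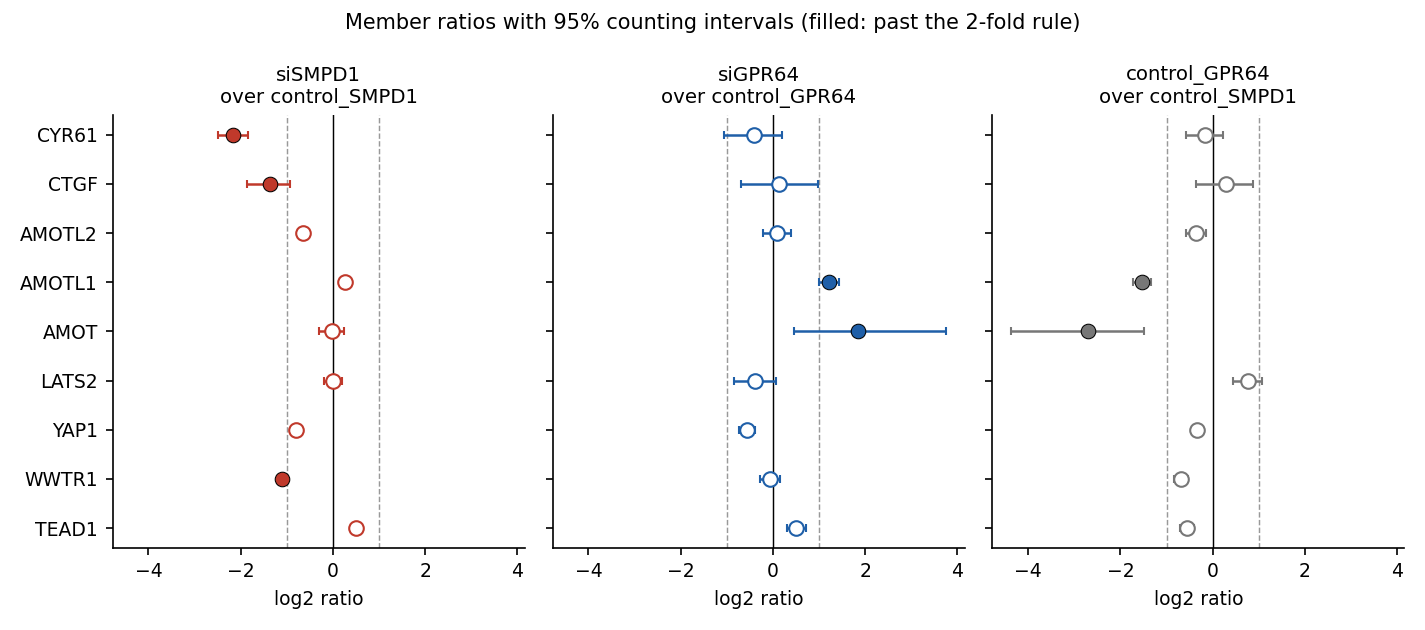
Log2 ratio of 9 genes in siSMPD1 and in siGPR64 over their paired controls and between the 2 controls, with 95% counting intervals; filled points pass the 2-fold rule and dashed lines mark 2-fold. CYR61, CTGF and WWTR1 pass it on the low side in siSMPD1, AMOTL1 and AMOT on the high side in siGPR64 and on the low side in control_GPR64.

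The difference between the controls gives the scale for these ratios, since both are labelled scrambled siRNA. Of the 9 genes, AMOTL1 was 2.88-fold lower (2.53 to 3.29) and AMOT 6.51-fold lower (2.81 to 20.7) in control_GPR64 than in control_SMPD1, where 15.4% of 12798 genes passed the rule (7.02% higher and 8.33% lower). With the 1.5-fold rule 1 gene was higher (LATS2) and 3 were lower (these and WWTR1), where 31.1% of all genes passed (14.6% higher and 16.6% lower). WWTR1 was 1.60-fold lower, TEAD1 1.48-fold, AMOTL2 1.29-fold and YAP1 1.26-fold lower, each with an interval that excludes equality. CYR61 and CTGF had log2 ratios of -0.17 (-0.59 to 0.23) and 0.28 (-0.37 to 0.88), both within counting error. The siSMPD1 values of CYR61 and CTGF thus lay further from either control than the controls lay from each other. SMPD1 itself stood at 52.8 CPM in control_GPR64, below its 91.7 CPM in siSMPD1. The comparison of siSMPD1 with control_GPR64 is thus not one of SMPD1 loss. For AMOTL1 and AMOT the distance between the controls was larger than the siGPR64 ratio.

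**Figure D4:**
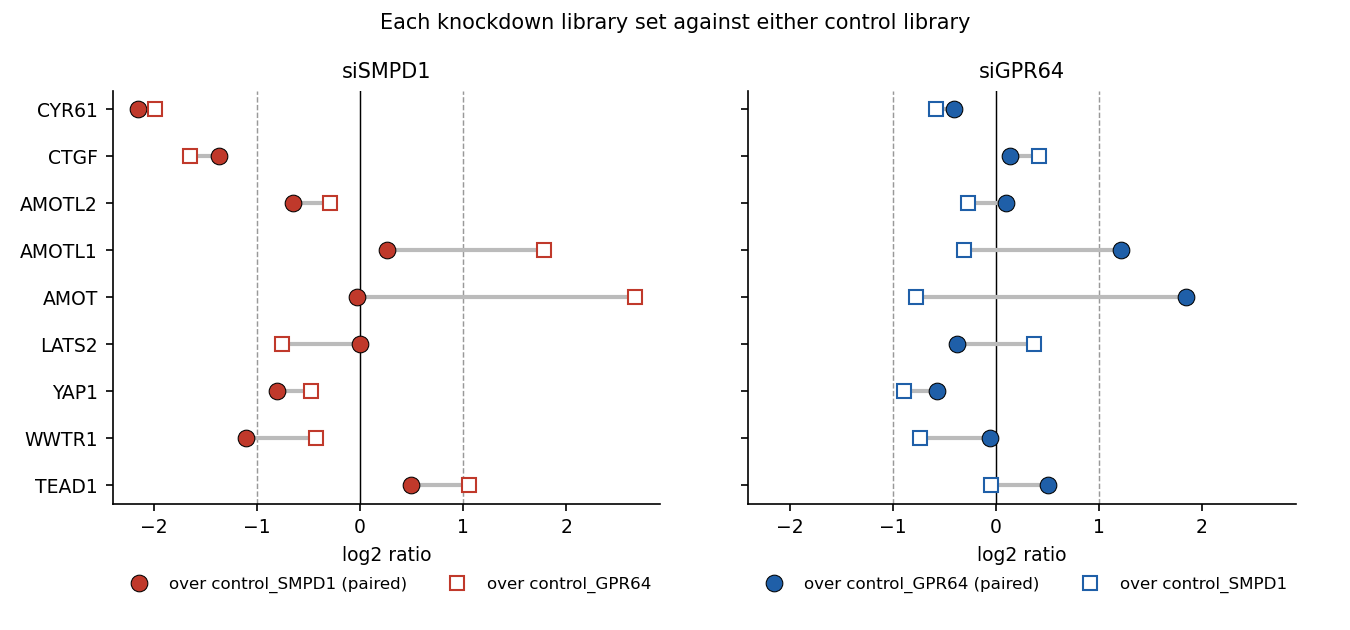
Log2 ratio of each knockdown library over its paired control (filled circles) and over the other control (open squares); the grey line joins them and dashed lines mark 2-fold. CYR61 and CTGF stay beyond 2-fold lower in siSMPD1 with either control. In siGPR64, AMOTL1 and AMOT, which pass the 2-fold rule over the paired control, change sides of 0. So do AMOTL2, LATS2 and TEAD1, which do not pass it, and AMOT also changes sides in siSMPD1. SMPD1 itself is lower in control_GPR64 (52.8 CPM) than in siSMPD1 (91.7 CPM).

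With both controls taken as 1 group of 2, edgeR's quasi-likelihood test and DESeq2 gave a model with 1 residual degree of freedom. CYR61 in siSMPD1 had a log2 change of -2.09 with an unadjusted p of 0.00879 in edgeR, and -2.10 with 0.00691 in DESeq2, and its adjusted p-values were 0.9998 and 0.9999. It was the single gene of the 9 at an unadjusted p under 0.05 in siSMPD1, and none was in siGPR64. Over all 12886 genes edgeR called 0 in siSMPD1 and 0 in siGPR64 at an adjusted p under 0.05, with 180 (1.40%) and 314 (2.44%) at an unadjusted p under 0.05. DESeq2 called 1 in siSMPD1 (0.00776%) and 0 in siGPR64, with 177 (1.37%) and 206 (1.60%) unadjusted.

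Lists of related genes were then read to place the 10 genes beside the rest of the pathway. A signature of 22 YAP/TAZ targets compiled from several cancers holds 5 of the 10 genes. In siSMPD1, CYR61 and CTGF were its only members past the rule among 18 measured, and its median log2 ratio was -0.08. Its 14 other measured genes had a median of 0.08 with none past the rule, and AMOTL2 and LATS2 are described above. Single genes lay on both sides: TGFB2, a TGF-beta ligand, had a log2 ratio of -0.85 (-1.47 to -0.27), RBMS3, an RNA-binding protein, -0.69 (-1.21 to -0.19) and F3, tissue factor, -0.41 (-0.76 to -0.06), while CCDC80, a matrix protein, had 0.44 (0.17 to 0.72). These 4 were named after their values were seen. Over all 18, the intervals of 5 lay above 0 and those of 8 below, with CYR61, CTGF and AMOTL2 among the 8. With control_GPR64 as reference, TGFB2 lay on the other side (38 reads against 0). There RBMS3 (-0.52) and F3 (-0.11) were within counting error, and CCDC80 had 0.94 (0.31 to 1.66). Against control_GPR64 the signature had a median of 0.40, and its 14 other genes one of 0.94 with 6 higher and 2 lower, so the sign of the signature's median depends on the control.

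In siGPR64, 6 genes of the signature were higher and 2 lower among 17 measured, with a median of 0.65, where 6.56% of all genes were higher and 5.18% lower. Against control_SMPD1 the median was -0.27, on the other side of 0. All 8 are genes outside the 10 described here. MYOF, a membrane repair ferlin, was 8.25-fold higher (5.38 to 13.8), NT5E, the ecto-nucleotidase CD73, 6.06-fold (3.78 to 10.7) and FJX1, a secreted kinase-like protein, 3.40-fold (2.73 to 4.28), while GADD45A, a stress response gene, was 2.65-fold lower (2.25 to 3.14). Against control_SMPD1 the log2 ratios were -1.36 for MYOF, -0.28 for NT5E, 1.40 for FJX1 and 0.97 for GADD45A, so 1 of these 4 kept its direction. With that control 1 gene of the signature was higher and 2 lower.

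Among TEAD factors and their VGLL co-factors, none of 6 measured genes passed the rule in siSMPD1. All 6 ratios were above 0 with a median of 0.12, 3 of them with an interval that excludes equality. With control_GPR64 as reference 5 were above 0, and TEAD3 had -0.79 (-1.18 to -0.39). VGLL4, which competes with YAP for TEAD, was 1.48-fold higher in siSMPD1 than in control_SMPD1 (1.37 to 1.60), close to TEAD1 itself. In siGPR64, TEAD4 was 2.29-fold higher (1.74 to 3.07) and VGLL3 2.54-fold (1.68 to 3.99), where 6.56% of all genes were higher. TEAD4 was also 2.12-fold higher against control_SMPD1 (1.76 to 2.54), whereas VGLL3 had a log2 ratio of -0.58. Per length, TEAD2 was the most abundant TEAD transcript in all 4 libraries, at 46.8 CPM per kilobase in siSMPD1, 42.0 in control_SMPD1, 41.0 in siGPR64 and 38.4 in control_GPR64. TEAD1 had 28.1, 20.0, 19.3 and 13.5 CPM per kilobase in the same libraries.

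Genes of the Hippo kinase cascade lay on both sides of 0 in siSMPD1, with a median log2 ratio of -0.03 over 26 measured genes, 7 of them with intervals above 0 and 7 below. AJUBA, a LIM-domain protein that binds LATS kinases, had -0.76 (-0.88 to -0.65), the same value against control_GPR64, and STRN3, a scaffold of a phosphatase complex, had -0.62 (-0.76 to -0.47). Both were named after their values were seen. RASSF2, a RAS-association adaptor that binds MST kinases, was the single gene past the rule, 2.35-fold higher (1.73 to 3.25). Over all genes 3.60% passed. In siGPR64 the median was 0.15 and 2 of 26 measured genes were higher, where 6.56% of all genes were higher. These were LIMD1 at 2.08-fold (1.45 to 3.05) and WTIP at 2.59-fold (1.44 to 5.09). Both are LIM-domain proteins that bind LATS kinases, as is AJUBA, whose log2 ratio there was -0.27 (-0.56 to 0.01). LIMD1 lay at -0.33 in log2 against control_SMPD1 and WTIP at 2.46.

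CYR61, CTGF and ANKRD1 also respond to other factors, so the lists of those were read too. Of the AP-1 factors, which share many enhancers with TEAD, FOS and ATF3 were lower in siSMPD1, at 2.42-fold (1.92 to 3.09) and 2.14-fold (1.80 to 2.56). The other 5 of 7 measured genes did not pass, where 1.11% of all genes were lower and 2.49% higher. The interval of 1 AP-1 gene lay above 0 and those of 3 below. FOSL2 went the other way, at 13.0 CPM in siSMPD1 (246 reads) against 8.80 in control_SMPD1 (169 reads). FOS stood at 5.41 CPM in siSMPD1 against 13.1 in control_SMPD1, and at 12.1 in siGPR64 against 14.7 in control_GPR64, so siSMPD1 was the lowest library, as for CYR61 and CTGF. In siGPR64, ATF3 was 4.43-fold lower (3.26 to 6.24), FOSL1 3.61-fold higher (2.14 to 6.65) and FOSL2 2.92-fold higher (1.46 to 6.69). Over all genes 6.56% were higher and 5.18% lower there. Against control_SMPD1 the log2 ratio of ATF3 in siGPR64 was -0.20, that of FOSL1 0.92 and that of FOSL2 0.37, none past the rule. In siSMPD1 against control_GPR64, FOS had -1.44 and ATF3 -3.05. Whether the AP-1 values play a part in those of CYR61 and CTGF was not tested.

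Cytoskeletal targets of SRF and its MRTF co-activators had a median of -0.07 in siSMPD1 with none of 17 past the rule. Over all genes 3.60% passed (2.49% higher and 1.11% lower). The intervals of 2 of these targets lay above 0 and those of 6 below. FSTL1, a secreted follistatin-like glycoprotein, was 1.85-fold lower (1.74 to 1.96) but had a log2 ratio of 0.89 against control_GPR64, and FHL2, a LIM-domain co-factor, 1.54-fold lower with an interval that includes equality. In siGPR64, FSTL1 was 3.94-fold higher (3.29 to 4.78), the actin-binding genes CALD1 and TAGLN 2.30-fold (2.03 to 2.61) and 2.34-fold higher (1.04 to 6.06), and the actin gene ACTA2 2.06-fold lower (1.69 to 2.54). TGF-beta targets had a median of 0.24 in siSMPD1, with BHLHE40, a circadian repressor, 2.69-fold higher (2.21 to 3.29) and none of 12 lower. In siGPR64 the matrix genes TGFBI and COL1A1 were 5.54-fold (4.64 to 6.70) and 2.19-fold higher (1.72 to 2.82), and ID1, a BMP target, 2.08-fold lower (1.35 to 3.33). Against control_SMPD1 the siGPR64 log2 ratios were 0.21 for FSTL1, 0.33 for CALD1 and 1.71 for COL1A1, with the same direction. Those of ACTA2 (0.74) and TGFBI (-0.24) had the other direction. TAGLN (-0.02, 19 reads in siGPR64 against 145 in control_SMPD1) and ID1 (0.13, 30 against 206 reads) lay near equality. The summed level of 8 fibroblast markers was 1052 CPM in siSMPD1, 723 in control_SMPD1, 587 in siGPR64 and 322 in control_GPR64. Most of it was COL1A2, at 915, 623, 442 and 200.4 CPM in the same libraries. COL3A1 had the same order, at 23.8, 22.9, 11.8 and 6.17 CPM. PDGFRB had another, at 86.9, 52.0, 55.6 and 76.0 CPM, and so did COL1A1, at 25.1, 23.0, 75.2 and 34.3 CPM. LUM had 0 reads in both libraries of the GPR64 pair and PDGFRA 0 in control_GPR64. In siSMPD1 and control_SMPD1, LUM had 2 and 14 reads and PDGFRA 1 and 3, so these 0 counts give no order. The part of these markers in the values above was not tested.

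**Figure D5:**
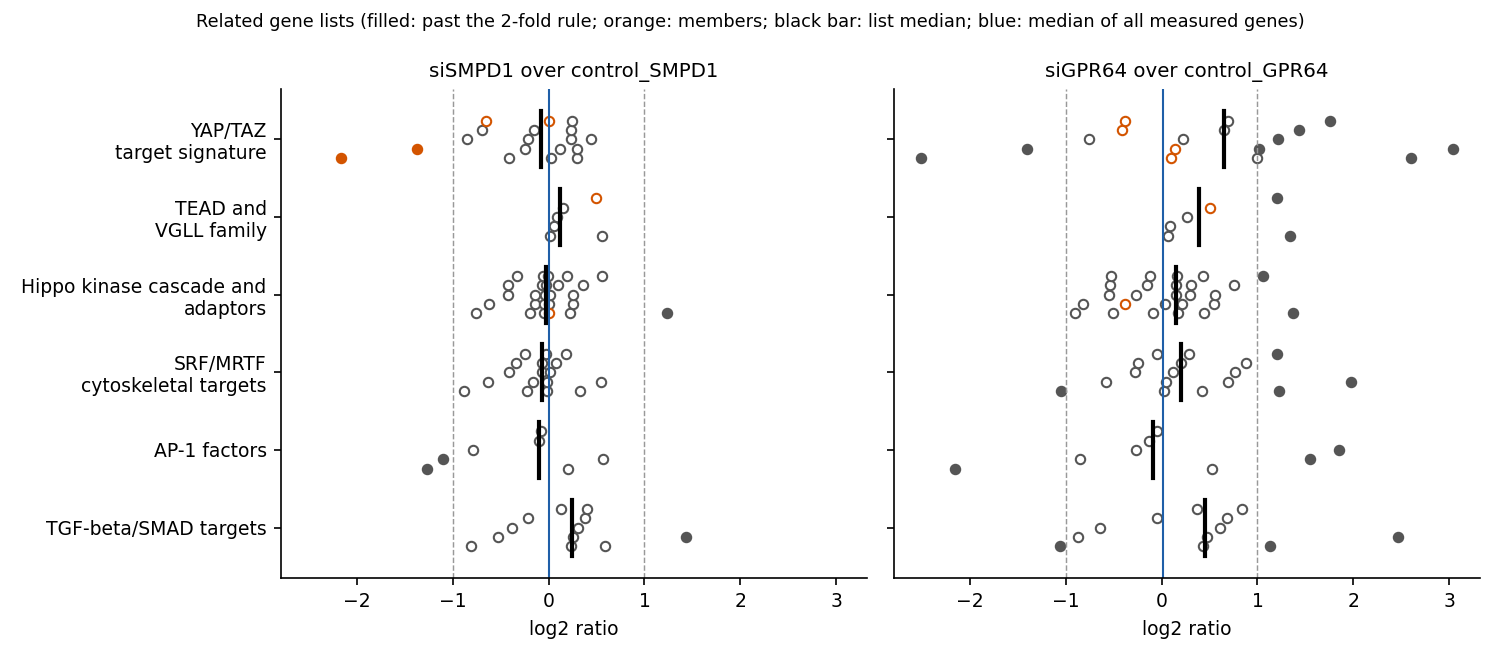
Log2 ratios of the measured genes of 6 related lists in siSMPD1 and siGPR64 over their paired controls (filled: past the 2-fold rule; orange: genes among the 10; black bar: list median; blue line: median of all measured genes). The signature median is -0.08 in siSMPD1 and 0.65 in siGPR64 with these controls, and 0.40 and -0.27 with the controls exchanged.

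The genes whose profile over the 4 libraries lay nearest to that of CYR61 were sought among 10901 genes that averaged 5 CPM or more, by Euclidean distance between centred log2 levels. They were PARP11, an ADP-ribosyltransferase (distance 0.237), BTG3, an antiproliferative factor (0.424), ACADSB, an acyl-CoA dehydrogenase (0.568), SLC35E1 (0.623) and LAPTM4A, a lysosomal membrane protein (0.625). BTG3, for example, stood at 25.5 CPM in siSMPD1 against 82.3 in control_SMPD1, and at 52.1 in siGPR64 against 75.0 in control_GPR64. Nearest to CTGF were INPP5A (0.142), TTC5 (0.179), MCAT (0.291), ETV4 (0.299) and LAPTM4A (0.337). CTGF ranked 13 in nearness to CYR61 (0.757), while WWTR1 ranked 164 and AMOTL1 10433. In nearness to CTGF, CYR61 ranked 117 at the same distance, WWTR1 2146 and AMOTL1 10395. With 4 libraries that share a cell line, these distances are descriptions only.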

How the data were processed

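Libraries were made from total RNA after removal of ribosomal RNA and sequenced from both ends, per the labels' protocols. Build hg19 and the tools bcl2fastq, TopHat2, SAMtools and HTSeq appear in the submitters' processing notes. No source here states the annotation or strand setting. In the deposited files each of 23228 gene symbols has an unnormalized read count, and 5 HTSeq summary lines (36.5% to 44.8% of entries) were left out. Reads aligned to several places are not in the gene counts.

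The 4 groups follow the titles, with 1 library each. Counts were scaled by TMM (edgeR 4.0.16, R 4.3.3). Log2 ratios used a prior of 0.5 count, with exact Clopper-Pearson 95% counting intervals. Differences between knockdowns used exact conditional intervals of the odds ratio (scipy 1.17.1). The labels mention no molecular identifiers, so reads may be PCR copies, and intervals and floors (3 counts) cover counting error only. The procedures were tested on simulated data. edgeR and DESeq2 1.42.0 were also fitted with both controls as 1 group. Exon lengths came from GENCODE release 29.

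The genes and lists were chosen with earlier results of these data known. Named genes are the 10, at most 4 of a list's genes that passed (at most 2 where none did, by size) and 5 nearest profiles.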

Additional observations from a re-analysis of the deposited data

How the results depend on the processing

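Over the alternatives, 107 log2 ratios stayed within their counting interval, 40 moved outside it and 6 of genes that had passed the rule changed sign. A further 11 sign changes were of ratios that had not passed it: AMOT in siSMPD1, and AMOTL2, LATS2 and TEAD1 in siGPR64. The 6 belong to siGPR64: AMOTL1 had -0.31 against control_SMPD1 and -0.18 against both controls summed, and AMOT had -0.77 against control_SMPD1, -0.60 against both summed, and -0.08 (edgeR) and -0.02 (DESeq2) with both as 1 group. DESeq2 size factors, total counts and a prior count of 2 moved no ratio outside its interval, and each gives 27 of the 107. Against the other control library only 4 ratios stayed within their interval, 12 moved outside it and 2 of genes past the rule changed sign. In siSMPD1, 3 genes passed the rule, 5 with a fold of 1.5, 5 against control_GPR64 (CYR61 and CTGF lower, AMOTL1, AMOT and TEAD1 higher) and 0 at an adjusted p under 0.05 in edgeR or DESeq2. In siGPR64, 2 passed, 1 with a mean of at least 5 CPM, and 0 against control_SMPD1, against both controls summed, or in edgeR or DESeq2. Between the controls 2 passed, and 4 with a fold of 1.5. No paired analysis was possible because each group has 1 library. Depth limits the GPR64 pair most, where AMOT rests on 17 and 5 reads and CTGF on 26 and 27.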

Other observations

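The reads of 2 genes within a library can be compared without any library scale, a choice made after seeing the data. WWTR1 had 0.547 reads for each YAP1 read in siSMPD1 against 0.676 in control_SMPD1, a log2 difference of -0.31 (95% counting interval -0.41 to -0.20). In the GPR64 pair it had 0.753 in siGPR64 against 0.530 in control_GPR64, a difference of 0.51 (0.22 to 0.79). The controls themselves differed by -0.35 (control_GPR64 minus control_SMPD1, -0.55 to -0.16), and siSMPD1 at 0.547 lay slightly above control_GPR64 at 0.530, so the side depends on the control. AMOTL1 had 5.51 reads for each AMOTL2 read in siSMPD1 against 2.94 in control_SMPD1, and 2.84 in siGPR64 against 1.31 in control_GPR64. This balance was higher in each knockdown library than in its paired control, with log2 differences of 0.91 (0.78 to 1.04) and 1.11 (lower bound 0.73). The controls themselves differed by -1.16 (-1.46 to -0.87). The siGPR64 value of 2.84 lay slightly below control_SMPD1 at 2.94, so its side depends on the control. CYR61 had 1.71 reads for each CTGF read in siSMPD1 against 2.94 in control_SMPD1, a difference of -0.78 (-1.35 to -0.20), and 1.46 in siGPR64 against 2.15 in control_GPR64, with an interval that includes 0.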
